A study of Mus musculus with 2 samples.

Results

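The 9 transcription factors Neurog3, Neurod1, Insm1, Nkx2-2, Rfx6, Pax4, Pax6, Mnx1 and Fev, which mark endocrine progenitors and the endocrine cells that arise from them, were followed in whole embryonic mouse stomach. They were chosen by name, and all 9 of 9 were found among the 43346 Ensembl genes of the tables. The material was total RNA longer than 200 nt, 10 ng per library, from pooled healthy B6NCrl stomachs at embryonic day 16.5, male and female embryos together. The 2 biological replicates form 1 group. Replicate 2 pooled 41 embryos per the labels, where the pool size of replicate 1 is not stated. No genotype, treatment or age was compared, so the data show at what level the factors were expressed and how far the pools differed. Replicate 1 held 44567153 expected counts (estimated reads) and replicate 2 held 25677702, and levels are given as TPM, a share of all transcripts corrected for length.

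Many endocrine cells of the gut and pancreas come from scattered epithelial progenitors that switch on Neurog3 for a short time. Neurog3, a basic helix-loop-helix factor, starts the programme. Neurod1, Insm1, Nkx2-2, Rfx6, Pax4, Pax6, Mnx1 and Fev also take part in endocrine cell formation, in combinations that differ between hormone cell types. Endocrine cells of the stomach make ghrelin, somatostatin, gastrin, histamine and serotonin, and not all of these types need depend on Neurog3 alike. Several of the same factors are also used outside the gut: Mnx1 in motor neurons, Fev in serotonergic neurons of the brain, and Neurod1, Insm1 and Pax6 in parts of the nervous system.

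The pools carried RNA of genes typical of other organs, and they differed. All 12 stomach epithelial genes listed stood at 1 TPM or more in both libraries, as did 64.3% of protein-coding genes. So did 13 of 14 pancreatic acinar genes, whose summed levels were 13888 TPM in replicate 1 and 15856 TPM in replicate 2. Replicate 1 carried far more skeletal muscle RNA (values are given with the comparison of the pools).

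Neurog3 was the highest of the 9 factors in both pools, 2.97-fold above Pax6, the next by mean TPM, in replicate 1 and 3.14-fold in replicate 2. By posterior mean TPM, a second estimate of the quantifier, Neurog3 was again the highest, but 1.69-fold and 1.32-fold above Pax6. That estimate also gives a level to genes without reads. Pax5, with 0 expected counts in both libraries, had a posterior mean TPM of 1.17 in replicate 1 and 2.05 in replicate 2. By TPM the 8 factors other than Neurog3 stood near or below 1 TPM. At 1 TPM or more in both libraries stood 2 of 9 factors, Neurog3 and Pax6, where 35.5% of all genes and 64.3% of protein-coding genes did so. Pax6 did so with all its transcripts summed. Those annotated as protein-coding took 59.6% of its TPM in replicate 1 and 37.9% in replicate 2. Neurod1, Nkx2-2 and Rfx6 passed 1 TPM in replicate 1 alone, and Pax4, Mnx1, Insm1 and Fev in neither. The median of the 9 factors was 1.03 TPM in replicate 1 and 0.85 TPM in replicate 2. All 9 together received 665 expected counts in replicate 1 and 291 in replicate 2, which is 15.4 and 11.6 CPM (scaled to the counts of all genes). In bulk tissue, fewer cells of a type and less RNA per cell cannot be told apart.

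Neurog3 (ENSMUSG00000044312; GRCm38 chromosome 10, 62133090 to 62134763, plus strand) had 4.01 TPM in replicate 1 and 3.67 TPM in replicate 2, a mean of 3.84 ± 0.240 (SD, n = 2). These levels rest on 177.25 and 90.89 expected counts. The 95% exact Poisson interval of those counts, scaled to TPM, ran from 3.44 to 4.65 in replicate 1 and from 2.95 to 4.51 in replicate 2. It covers counting error only, as do all intervals here, since amplified reads are not independent molecules. The intervals overlapped widely, and the mean lay at percentile 45.6 of protein-coding genes. Neurog3 made up 34.8% of the summed TPM of the 9 factors in replicate 1 and 39.2% in replicate 2.

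The Neurog3 count depends on how reads were split with a neighbour. Fam241b lies over it on the opposite strand, and 273 of the 1674 exon bases of Neurog3 in GENCODE M21 are also exon bases of Fam241b. Neither gene's expected count was whole, yet the pair summed to 676.00 in replicate 1 and to 420.00 in replicate 2. Fam241b itself had 14.62 TPM in replicate 1 and 18.14 TPM in replicate 2. Strand use in the counting is not given in the sources used here, so reads in the shared stretch cannot be assigned with certainty. Nkx2-2 shows the same with its antisense gene Nkx2-2os, the pair summing to 60.00 and 20.00 counts, of which Nkx2-2os held 3.15 and 1.08.

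**Figure D1:**
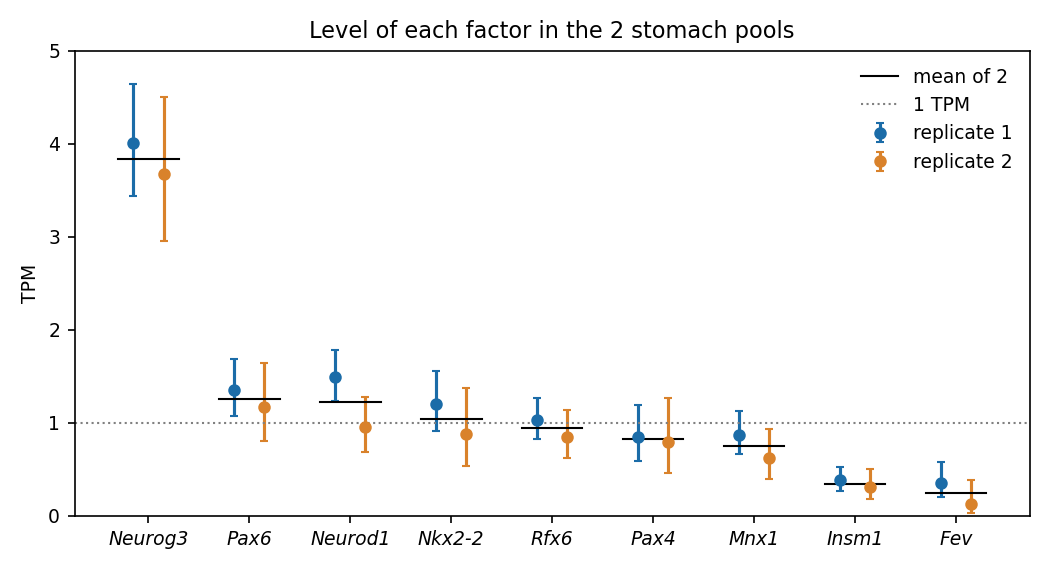
TPM (vertical axis) of the 9 factors in replicate 1 (blue) and replicate 2 (orange); error bars are 95% exact Poisson intervals of the counts scaled to TPM, black lines the means of 2 and the dotted line 1 TPM. Neurog3 stands apart at 4.01 and 3.67 TPM, while the points of the other 8 lie at 1.49 TPM or lower.

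Lower than Neurog3 stood the set of Neurod1, Nkx2-2, Rfx6 and Insm1. Neurod1 (ENSMUSG00000034701; chromosome 2, 79452521 to 79456751, minus strand), a basic helix-loop-helix factor of differentiating endocrine cells, had 1.49 TPM in replicate 1 and 0.95 TPM in replicate 2 (mean 1.22 ± 0.382, SD, n = 2). Its counts were 120 and 43. Replicate 1 was the higher, and the intervals, 1.24 to 1.78 and 0.688 to 1.28 TPM, overlapped only at their edges. In its exons, 201 of 2729 bases are shared with Cerkl on the same strand and 154 with the antisense gene Gm26755, which received no count.

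Nkx2-2 (ENSMUSG00000027434; chromosome 2, 147177546 to 147194243, minus strand), a homeodomain factor needed for several endocrine cell types, had 1.20 TPM in replicate 1 and 0.88 TPM in replicate 2 (mean 1.04 ± 0.226). Rfx6 (ENSMUSG00000019900; chromosome 10, 51677756 to 51730432, plus strand), a winged-helix factor of gut and pancreatic endocrine cells, had 1.03 TPM and 0.85 TPM in the same order (mean 0.940 ± 0.127). Insm1 (ENSMUSG00000068154; chromosome 2, 146221921 to 146225020, plus strand), a zinc-finger repressor of differentiating endocrine cells, had 0.38 TPM in replicate 1 and 0.31 TPM in replicate 2 (mean 0.345 ± 0.0495) from 35 and 16 counts. Insm1 was the lowest of this set in both pools.

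Among factors that steer the choice between hormone cell types, Pax6 led. Pax6 (ENSMUSG00000027168; chromosome 2, 105668900 to 105697364, plus strand), a paired-domain and homeodomain factor, had 1.35 TPM in replicate 1 and 1.17 TPM in replicate 2 (mean 1.26 ± 0.127). Its relative Pax4 (ENSMUSG00000029706; chromosome 6, 28442334 to 28449353, minus strand), which favours beta and delta cells in the pancreas, had 0.85 TPM in replicate 1 and 0.79 TPM in replicate 2 (mean 0.820 ± 0.0424). Pax6 exceeded Pax4 1.59-fold in replicate 1 and 1.48-fold in replicate 2, a difference of 0.56 ± 0.07 on the log2(TPM + 0.1) scale (SD, n = 2). Both libraries lay on the same side, and the difference exceeded its SD. Yet the counting intervals of Pax6 and Pax4 overlapped, at 1.07 to 1.68 and 0.585 to 1.19 TPM in replicate 1. In replicate 2 they were 0.805 to 1.64 and 0.460 to 1.26 TPM. The Pax6 level also includes transcripts not annotated as protein-coding, described below.

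Mnx1 (ENSMUSG00000001566; chromosome 5, 29473034 to 29478470, minus strand), a homeodomain factor of the early pancreas, beta cells and motor neurons, had 0.87 TPM in replicate 1 and 0.62 TPM in replicate 2 (mean 0.745 ± 0.177). Fev (ENSMUSG00000055197; chromosome 1, 74881509 to 74885419, minus strand), an ETS factor of endocrine progenitors and serotonergic neurons, had 0.35 TPM in replicate 1 and 0.13 TPM in replicate 2 (mean 0.240 ± 0.156). The Fev values rest on 15 and 3 counts, so its level in replicate 2 is known only to lie between 0.0268 and 0.380 TPM by the counting interval. Fev was last in both pools by TPM, whereas by posterior mean TPM it stood at 0.53 and 0.44, above Insm1 at 0.38 and 0.32.

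In order of mean TPM the factors ran Neurog3, Pax6, Neurod1, Nkx2-2, Rfx6, Pax4, Mnx1, Insm1 and Fev. Of the 8 steps between neighbours, 5 exceeded their SD with the same sign in both libraries, a description, since the same values set the order. The step down from Neurog3 to Pax6 was 1.54 ± 0.05 log2 units and that from Mnx1 to Insm1 was 0.91 ± 0.14. The other steps were small. Neurod1 to Nkx2-2 was 0.20 ± 0.14, Nkx2-2 to Rfx6 0.12 ± 0.11 and Rfx6 to Pax4 0.17 ± 0.11. By posterior mean TPM, 2 of these 3 turned round, Neurod1 to Nkx2-2 at -0.26 ± 0.34 and Rfx6 to Pax4 at -0.21 ± 0.22, so the order among the middle factors depends on the estimate. Pax6 and Neurod1 (0.07 ± 0.29) changed places between the pools, as did Pax4 and Mnx1 (0.14 ± 0.24), and the step from Insm1 to Fev (0.46 ± 0.52) was smaller than its SD. An exact sign-flip permutation test over 2 libraries cannot give a two-sided p below 0.5, so none was used.

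Against Neurog3, each of 6 other factors was lower in both libraries by more than the SD of the difference. The 6 differences share the same Neurog3 values and Neurog3 was the highest in these data, so they are a description. On the log2(TPM + 0.1) scale the differences from Neurog3 were -1.61 ± 0.34 for Neurod1, -1.80 ± 0.20 for Nkx2-2 and -1.93 ± 0.09 for Rfx6. They were -2.24 ± 0.22 for Mnx1, -3.15 ± 0.07 for Insm1 and -3.61 ± 0.60 for Fev. Neurod1 thus stood at 0.372 of the Neurog3 level in replicate 1 and 0.259 in replicate 2, and Insm1 at 0.0948 and 0.0845. Neurod1 and Pax6 did not differ beyond their spread by TPM (-0.07 ± 0.29), but by posterior mean TPM Neurod1 was lower than Pax6 in both libraries, with a mean difference of -0.99.

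Sequence before the start was available from RefSeq (GRCm38.p6) for 7 of 9 factors, in 8 windows of 250 bases before to 50 bases after the annotated start. Neurog3, Mnx1 and Nkx2-2 are shown because their RefSeq starts lie within 2 bases of the start of the transcript that took most of their reads, and because their stretches hold E-boxes (CANNTG, the core that basic helix-loop-helix factors bind). Each runs 5′ to 3′ up to the start or to the first exon of a protein-coding gene, with E-boxes in capitals. The Nkx2-2 stretch stops 53 bases short of the start. It lies inside the span of Nkx2-2 itself, 147177546 to 147194243, so it does not precede the whole gene.
Neurog3, chr10:62132840-62133089, plus strand: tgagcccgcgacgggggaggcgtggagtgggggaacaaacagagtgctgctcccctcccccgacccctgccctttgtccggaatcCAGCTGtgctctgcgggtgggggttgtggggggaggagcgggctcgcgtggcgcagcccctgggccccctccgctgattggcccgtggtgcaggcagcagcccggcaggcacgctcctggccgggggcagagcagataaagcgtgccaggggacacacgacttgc
Mnx1, chr5:29478471-29478720, minus strand: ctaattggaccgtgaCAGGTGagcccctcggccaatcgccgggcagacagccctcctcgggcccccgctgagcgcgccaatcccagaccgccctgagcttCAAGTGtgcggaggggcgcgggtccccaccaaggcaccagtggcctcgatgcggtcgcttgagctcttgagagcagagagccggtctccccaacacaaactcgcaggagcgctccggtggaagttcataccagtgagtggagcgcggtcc
Nkx2-2, chr2:147186456-147186652, minus strand: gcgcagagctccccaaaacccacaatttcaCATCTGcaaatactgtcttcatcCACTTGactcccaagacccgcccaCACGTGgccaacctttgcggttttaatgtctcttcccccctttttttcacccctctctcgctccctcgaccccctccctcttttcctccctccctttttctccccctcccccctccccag

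The E-box of Neurog3 begins 165 bases before the start, those of Mnx1 235 and 150 bases before, and those of Nkx2-2 220, 197 and 173 bases before. Over the full windows, searched on both strands, 6 of 8 held CANNTG, where 72.3% of 32841 RefSeq promoter windows did. CAGATG, a form of E-box bound by Neurog and Neurod factors, was in 1 of 8, that of Nkx2-2, where it reads CATCTG on the strand shown and overlaps CANNTG; 17.2% of all windows held it. No window held TATAAA, which 13.6% of all windows did. A match is a string of letters and not a bound site.

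The windows differed in CpG content. Those of Neurod1 and Mnx1 held 26 CpG each, Fev 25, Neurog3 19, Nkx2-2 17 and the pair of Pax6 windows 18 and 16, where the median of all windows was 7. These counts lie at percentiles 67.0 to 83.1 of all windows. The Rfx6 window held 2 CpG, at percentile 14.1. Its GC content of 42.3% and that of the second Pax6 window, 46.3%, were below the median of 52.7%. The RefSeq start of that Rfx6 window is that of Rfx6-201, and the second Pax6 window starts at Pax6-213. Both transcripts received 0 expected counts in both libraries, so these windows do not describe the starts of the transcripts seen here.

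Of the 9 factors, 3 had 1 transcript in the tables (Neurog3, Neurod1 and Insm1) and 6 had several. In 5 of these 6 the same transcript led in both pools. Mnx1-202 and Fev-201 carried 100% of their gene's TPM in both libraries, as far as the rounded values show. Pax4-201 carried 93.0% in replicate 1 and 85.0% in replicate 2, and Rfx6-202 carried 69.9% and 85.9%. Reads common to several transcripts are divided by a model, and with so few reads these shares are rough estimates. By posterior mean TPM the share of Mnx1-202 was 72.2% in replicate 1 and 64.7% in replicate 2, that of Fev-201 66.0% and 31.8%, and that of Pax4-201 46.9% and 28.2%. Fev-203 then led Fev in replicate 2, at 50%, although it held 0.01 expected counts there.

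Nkx2-2-201 carried 68.1% of Nkx2-2 TPM in replicate 1 and 47.1% in replicate 2. The rest went to 3 shorter transcripts. Of these, Nkx2-2-204 took 19.3% in replicate 1 on 2 expected counts, and Nkx2-2-202 took 27.6% in replicate 2 on 1. By expected counts Nkx2-2-201 held 88.8% in replicate 1 and 75.3% in replicate 2. The mean length given for Nkx2-2 was 1646 nt in replicate 1 and 1356 nt in replicate 2. A shorter length raises TPM for the same reads. The pools were further apart in Nkx2-2 counts (a 1.72-fold ratio after scaling) than in Nkx2-2 TPM (1.36-fold).

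Pax6 was spread most widely. Of its 26 listed transcripts, 12 received reads in at least 1 library, and Pax6-207 led in replicate 1 with 27.2% of the gene's TPM while Pax6-216 led in replicate 2 with 25.9%. Pax6-216 is annotated in M21 as a processed transcript without a coding region. Transcripts annotated there as protein-coding took 59.6% of Pax6 TPM in replicate 1 and 37.9% in replicate 2. Pax6-206 and Pax6-207 differ by exon 5a alone, a coding exon of 42 bases inserted into the paired domain, which is known to change which DNA the protein binds. It is shown in capitals, in the spliced Pax6-206 transcript of GENCODE M21, with 10 bases of each neighbouring exon in lower case.
Pax6 exon 5a, chr2:105684751-105684792, plus strand: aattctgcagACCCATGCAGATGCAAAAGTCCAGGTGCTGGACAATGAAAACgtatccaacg

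Over the transcripts that span this junction, 9 with the exon and 6 without, those with exon 5a held 23.55 expected counts in replicate 1 against 31.96 for those without. In replicate 2 they held 10.95 against 5.02. As a share of TPM the form with the exon was 43.1% in replicate 1 and 82.7% in replicate 2. In replicate 2, 0.24 of its 0.43 TPM came from Pax6-215, annotated as a processed transcript, on 2.6 expected counts. With posterior mean TPM it was 52.3% and 58.9%. Both forms were thus assigned reads in both pools, and the split was not settled at this depth.

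**Figure D2:**
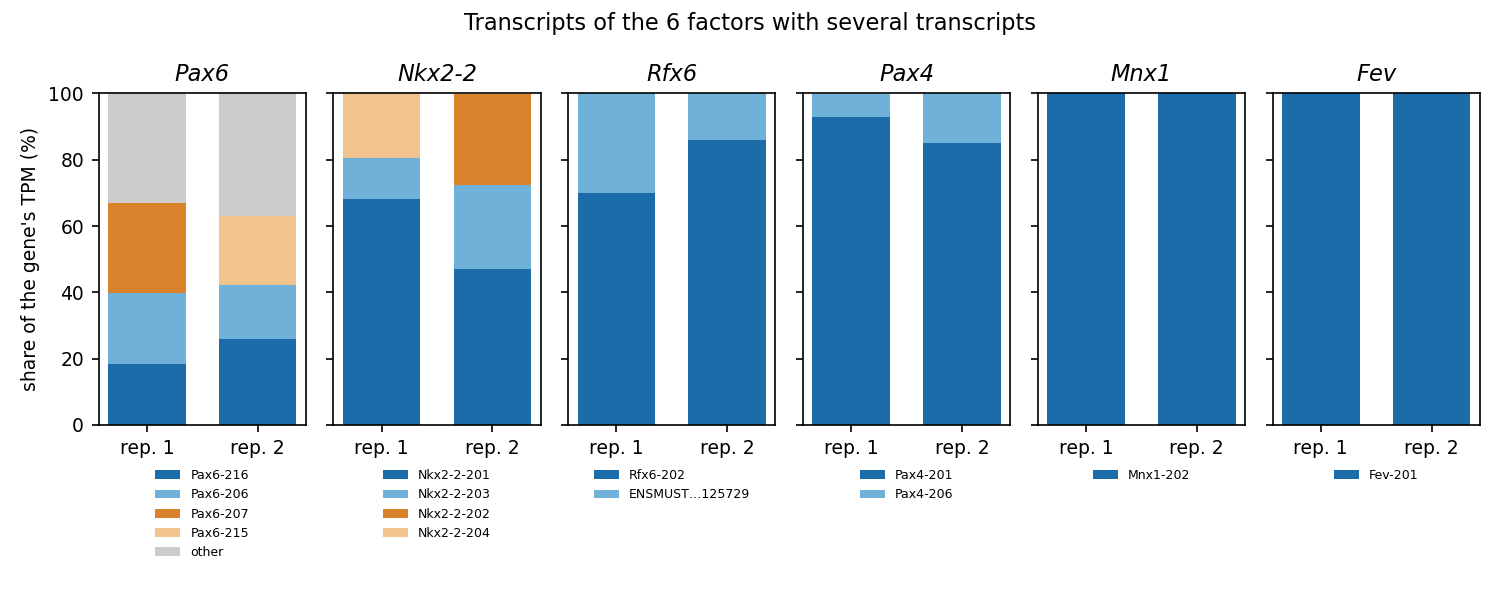
Share of each gene's TPM (vertical axis, %) assigned to its transcripts, replicate 1 beside replicate 2, for the 6 factors with several transcripts in the tables; the 4 highest are coloured and the rest grey. Mnx1 and Fev show 1 transcript each, while no Pax6 transcript reaches 30%: Pax6-207 leads replicate 1 at 27.2% and Pax6-216 replicate 2 at 25.9%.

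The level of Pax6 also depended on the estimate. Its posterior mean TPM was 2.28 in replicate 1 and 2.62 in replicate 2, a mean of 2.45 ± 0.240 (SD, n = 2) against 1.26 ± 0.127 for TPM. Neurog3, with 1 transcript, had a mean of 3.66 by posterior mean TPM against 3.84 by TPM. By posterior mean TPM, 4 of 9 factors, Neurog3, Pax6, Nkx2-2 and Pax4, reached 1 TPM in both libraries. Pax5, with 0 expected counts in both, did so as well, so reaching 1 on this scale does not require reads. Neurog3 stayed the highest in both.

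Between the pools, every factor had the higher TPM in replicate 1. After scaling by the trimmed mean of M-values, 8 of 9 factors passed the low-count filter, all but Fev, and all 8 had a log2 ratio of replicate 1 over replicate 2 above 0, as did 50.4% of all genes tested and 54.0% of those with a mean of 20 to 150 expected counts. Their median log2 ratio was 0.38, beside 0.00 for all genes. None lay beyond 2-fold, where 3.58% of all genes tested and 10.0% of those with 20 to 150 counts did. With 1 library on each side there is no replicate check of a ratio and no p-value.

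The largest log2 ratios among these 8 were 0.74 for Nkx2-2, 0.66 for Neurod1, 0.48 for Mnx1 and 0.46 for Pax6. Nkx2-2 and Neurod1 were the 2 of 8 beyond 1.5-fold, where 9.28% of all genes tested were. Insm1 stood at 0.30, Rfx6 at 0.18, Neurog3 at 0.15 and Pax4 at 0.14. The 95% counting interval of the scaled count ratio lay above 1 for 2 of 9 factors, Neurod1 (1.60-fold, 1.12 to 2.32) and Nkx2-2 (1.72-fold, 1.01 to 3.06). Those of the other 7 contained 1, among them Neurog3 (1.11-fold, 0.861 to 1.45). The share of all genes whose interval leaves out 1 was not computed, so the count of 2 of 9 is a description only. For Fev the ratio of 15 to 3 counts was 2.87-fold, with an interval from 0.811 to 15.4. By posterior mean TPM, Pax6 and Pax4 were lower in replicate 1 instead.

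**Figure D3:**
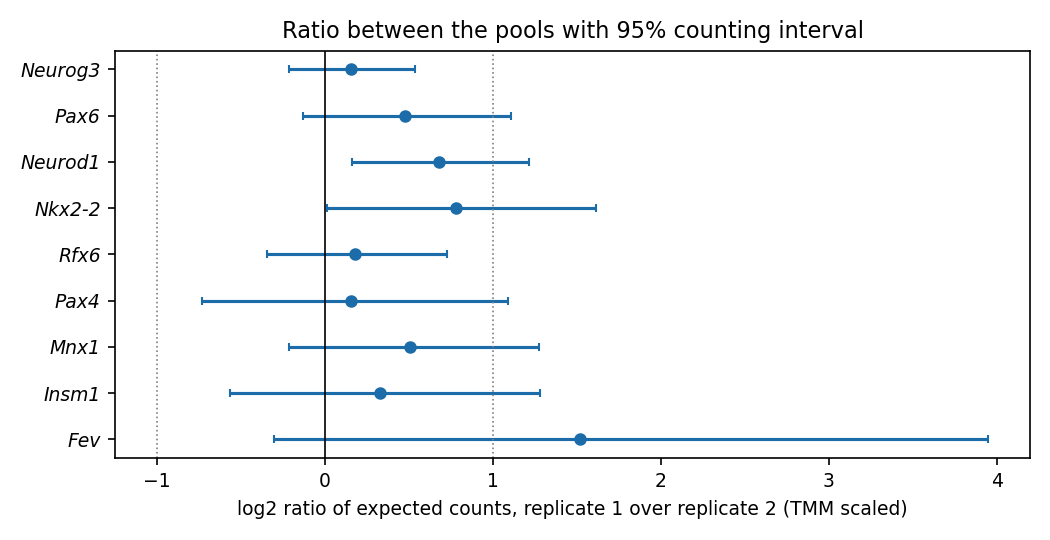
Scaled log2 ratio of expected counts, replicate 1 over replicate 2 (horizontal axis), for the 9 factors, with 95% exact counting intervals; dotted lines mark 2-fold. All points lie right of 0, and the intervals of Neurod1 and Nkx2-2 alone leave out 0. Fev, which did not pass the low-count filter, is the one point beyond 2-fold, at 1.52, and the intervals of all but Neurog3 and Rfx6 reach past 2-fold.

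These ratios are relative to the median gene. With ERCC spike-in scaling the median gene itself moved to -0.57, and the median of the 8 factors was -0.17, with Neurod1 at 0.10 and Nkx2-2 at 0.19 above 0 and the other 6 below. The pools also differed in other tissue. Skeletal muscle genes, 8 of 8 listed, exceeded a 2-fold ratio in favour of replicate 1, as did 1.24% of all genes, with summed levels of 2079 TPM in replicate 1 and 173 TPM in replicate 2. Of 12 stomach epithelial genes 10 had a log2 ratio below 0. The ratio was above 0 for 16.7% of them, beside 50.4% of all genes tested. Their sums were 3848 TPM in replicate 1 and 6501 TPM in replicate 2. Gkn1 and Gkn2 were more than 2-fold lower in replicate 1, as were 2.34% of all genes. The part of these tissues in the ratios of the 9 factors was not tested.

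Other transcription factors tied to endocrine cells spanned a wide range. Of 30 such genes, chosen with earlier results of these data known, 19 reached 1 TPM in both libraries, or 63.3% beside 64.3% of protein-coding genes, and the list median was 1.80 ± 0.286 TPM (SD, n = 2). Etv1 (32.8 TPM in replicate 1 and 34.4 in replicate 2) and Isl1 (27.2 and 26.5), a LIM homeodomain factor of endocrine cells and neurons, were highest. Hhex (12.7 and 12.2), Sox4 (13.6 and 10.4), Runx1t1 (11.0 and 11.8), Foxa1 (8.08 and 8.05), Nkx6-3 (7.52 and 8.23), Foxa2 (6.68 and 7.11) and Rfx3 (6.84 and 6.41) followed. These genes are also expressed in cells that are not endocrine, Etv1 in pacemaker cells of the gut wall and Foxa1 and Foxa2 across gut epithelium among them.

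Closer to the level of Neurog3 stood Tox3 (4.24 TPM in replicate 1 and 3.58 in replicate 2) and Pdx1 (3.52 in both), which marks antral stomach, duodenum and pancreas. Nkx6-2 (2.09 and 2.37), Glis3 (1.97 and 1.60), Prox1 (2.03 and 1.28), Myt1 (1.61 and 1.59), Nkx6-1 (1.24 and 1.14) and St18 (1.06 and 1.23) lay between Neurog3 and Rfx6. Myt1 and St18 are zinc-finger factors of the endocrine programme. Of the 22 genes of the list past the filter, 14 had a ratio above 0, or 63.6% beside 50.4% of all genes tested, with a median log2 ratio of 0.11. Atoh1, which drives secretory cells of the intestine, was the 1 of 22 beyond 2-fold, or 4.55% beside 3.58% of all genes tested, at 0.59 TPM in replicate 1 (36 counts) and 0.26 in replicate 2 (9 counts).

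**Figure D4:**
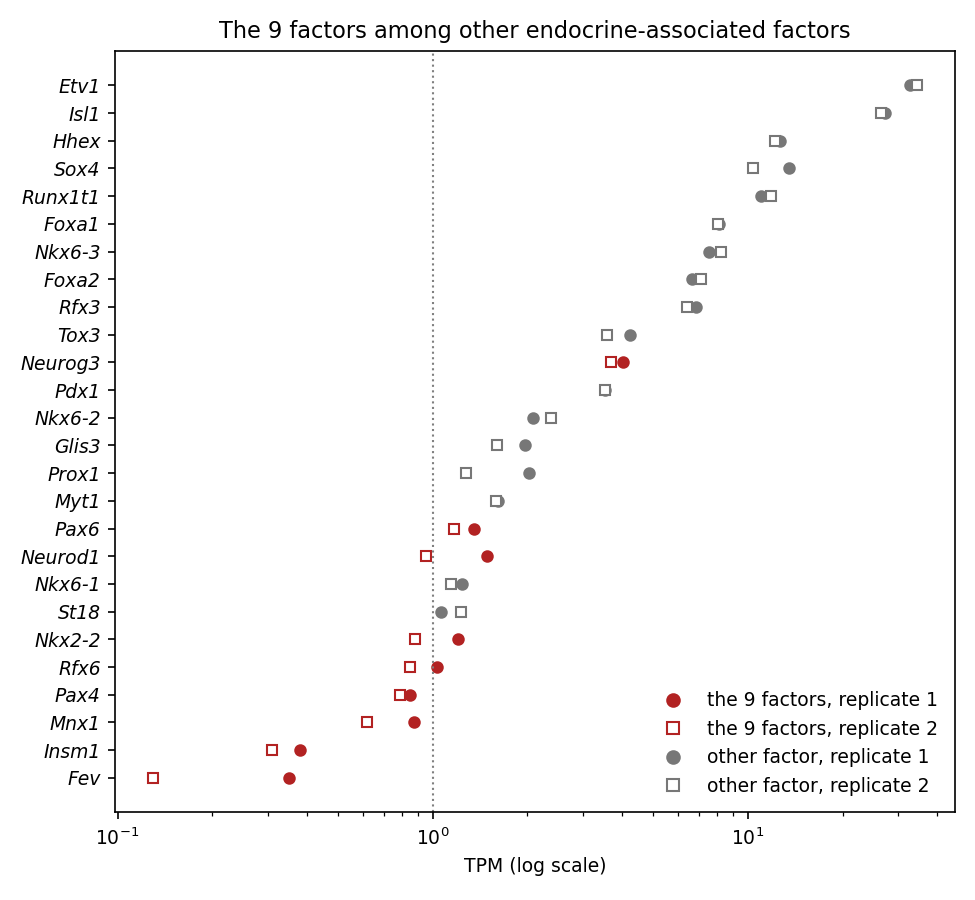
TPM on a log axis (horizontal) of the 9 factors (red) and 17 of the 19 other endocrine-associated factors at 1 TPM or more in both libraries (grey); filled circles are replicate 1 and open squares replicate 2. Neurog3 falls between Tox3 and Pdx1, and Pax6 and Neurod1 lie between Myt1 and Nkx6-1. The grey genes were kept for reaching 1 TPM and the 9 were not, so the place of factors under 1 TPM below them follows from that choice.

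Close relatives of Neurog3 and Neurod1 were near 0. Neurog1 received no count in either library, which allows up to 3 counts in each, and Neurog2 had 0.05 TPM in replicate 1 and 0.03 in replicate 2. Of Neurod2, Neurod4 and Neurod6, none passed 0.1 TPM, and Neurod2 was highest at 0.02 and 0.06. Insm2 stood at 0.15 and 0.04. In the Nkx2, Pax, Rfx and ETS families a relative was higher than the factor itself. Nkx2-3, a factor of gut and spleen mesenchyme, had 9.03 TPM in replicate 1 and 6.08 in replicate 2, Pax9, a foregut factor, 2.24 and 3.23, Rfx7 7.14 and 6.19, and the ETS gene Ets2 48.4 and 54.3.

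Notch signalling, through Hes1, restrains Neurog3 in the gut and pancreas. Of 22 Notch and upstream genes 21 reached 1 TPM in both libraries, where 64.3% of protein-coding genes did. The exception was Hes5 (0.83 TPM in replicate 1 and 0.50 in replicate 2). Hes6 (54.4 and 49.2), Hes1 (31.2 and 28.9), Sox9 (26.3 and 26.2) and Rbpj (23.5 and 24.1), the DNA-binding partner of Notch, were highest. The list median was 10.6 ± 0.117 TPM, above each of the 9 factors. None lay beyond 2-fold, where 3.58% of all genes tested did. A ratio above 0 was seen in 15 of 22, or 68.2% beside 50.4% of all genes tested. These genes act in many cell types of the organ, so their levels are not those of endocrine progenitors.

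The hormone and secretory granule genes listed had a higher median level than the 9 factors. The list is not particular to endocrine cells. Of 25 hormone and secretory granule genes 22 reached 1 TPM in both libraries, where 64.3% of protein-coding genes did. The median level of the 25 was 8.50 ± 0.361 TPM (SD, n = 2). Cpe, a prohormone processing enzyme also made by neurons, had 105 TPM in replicate 1 and 96.3 in replicate 2. The hormone genes Gcg (44.4 and 42.1), Pyy (45.2 and 34.0) and Ghrl (28.2 and 37.6) were next. Tph1, Nts and Mboat4 stayed under 1 TPM in both.

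Several of these genes, and most of the 9 factors, are also expressed in pancreas and intestine, and markers of both were present. Of 11 islet genes 9 reached 1 TPM in both libraries, where 64.3% of protein-coding genes did. The 11 summed to 598 TPM in replicate 1 and 528 in replicate 2, led by Ins2 (340.0 and 293), Ttr, which liver also makes (77.7 in both), Iapp (59.0 and 52.2) and Gcg. Acinar genes did so in 13 of 14 cases, with sums of 13888 and 15856 TPM, led by Clps (2869 and 3650.3), Pnliprp1 (3209 and 3154), Ctrb1 (3012 and 2818) and Amy2a5 (1862 and 2381). All 8 intestinal genes did, with sums of 656 and 664 TPM, led by Lgals4 (286 and 321), Apoa4 (185 and 164), Fabp2 (120.1 and 117) and Cdh17 (28.7 and 24.6). The share of each factor's reads that came from pancreas or intestine was not tested.

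Neurons of the gut wall were represented too. Of 18 enteric neuron genes 15 reached 1 TPM in both libraries, where 64.3% of protein-coding genes did. The 18 summed to 316 TPM in replicate 1 and 312 in replicate 2, led by Uchl1 (59.9 and 52.1), Stmn2 (52.2 and 49.4), Gap43 (46.4 and 49.7) and Tubb3 (37.9 and 42.1). Lists for the serotonergic and motor neurons that use Fev and Mnx1 gave mixed values, with 2 of 5 and 1 of 5 genes at 1 TPM or more in both libraries. Tph2, the serotonin-making enzyme of neurons, had 3 counts in replicate 1 and 0 in replicate 2, and Lmx1b 2 in each. Olig2 had no count in either, Lhx3 1 and 0, and Lhx4 2 and 4. In contrast Ddc (39.4 TPM in replicate 1 and 41.1 in replicate 2), Slc6a4 (2.41 and 1.91) and Slc18a3 (3.93 and 3.78) were above 1 TPM, Chat stood at 0.47 and 0.43, and Htr1a at 0.07 and 0.09. The part of such neurons in the levels of Fev and Mnx1 was not tested.

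**Figure D5:**
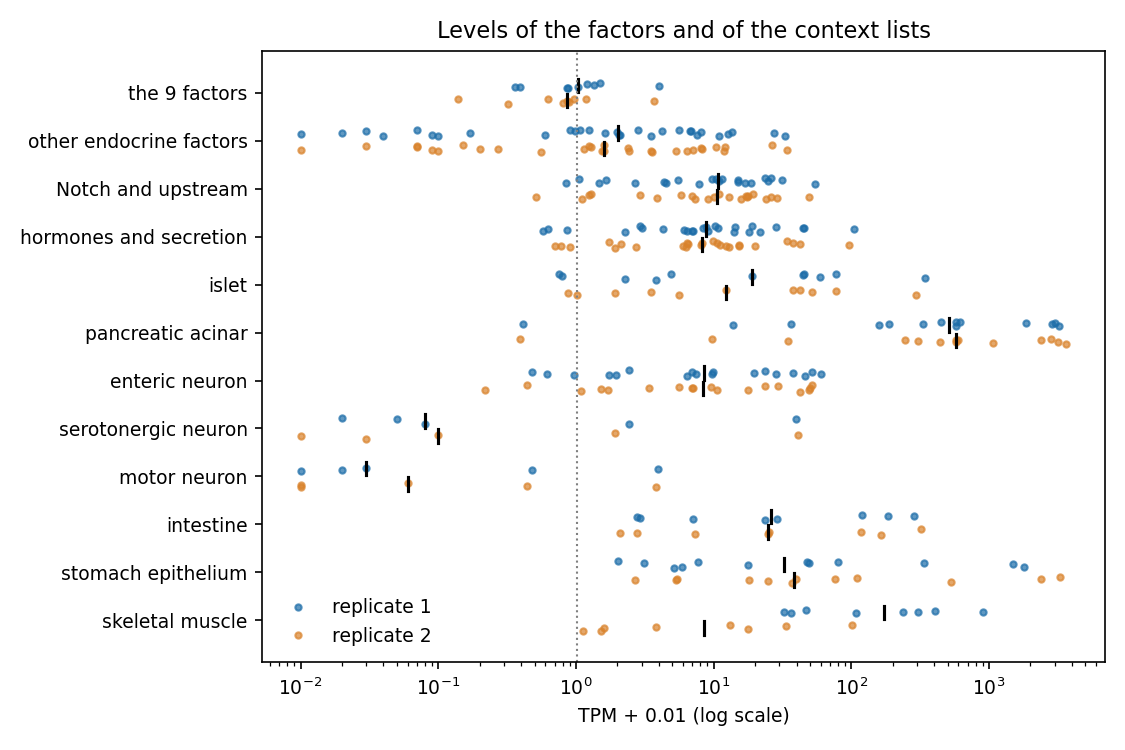
TPM plus 0.01 on a log axis (horizontal) for each gene of the 9 factors and of 11 context lists, replicate 1 in blue above replicate 2 in orange; black bars are list medians and the dotted line is 1 TPM. The factors centre on 1.03 and 0.85 TPM, below hormones, islet, acinar, enteric neuron and intestinal genes and above the motor and serotonergic neuron lists.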

How the data were processed

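Each of the 2 total RNA libraries came with a table of genes and a table of transcripts, made by the authors on mm10 (per the labels) with annotation M4 (per text files deposited with the tables). Which aligner and quantifier were used, and whether strand was, is not given in the sources used here. Expected counts, per the file headers, are reads assigned by estimate and need not be whole. TPM (computed with spike-ins included), posterior mean TPM and FPKM were deposited by the authors beside them. The deposited percent of each gene's TPM per transcript was recomputed from TPM here.

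Symbols and positions came from GENCODE M21 (GRCm38), which named 42462 of 43346 genes. Spike-ins, phiX and features with numeric identifiers (3.08% and 2.05% of counts in replicates 1 and 2) stayed out of library sizes. Rounded expected counts went through filterByExpr and TMM scaling (edgeR 4.0.16, R 4.3.3), with both libraries in 1 group. The TMM factors were 1.01 and 0.992, and ratios used a prior count of 2. DESeq2 1.42.0 gave alternative size factors. A single group leaves nothing for a quasi-likelihood test to compare. Level differences used log2(TPM + 0.1). Intervals are 95% exact Poisson (levels) and Clopper-Pearson (ratios). The ratio calculation alone was tested on simulated counts, and the genes changed there had higher counts than most of the factors. Python 3.11.15, pandas 2.3.3, scipy 1.17.1 and matplotlib 3.10.9 were used.

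Members and lists were chosen with earlier results of these data known. Named were every member, the 4 highest genes of each list and any beyond 2-fold, every other endocrine factor at 1 TPM in both libraries (2 of the 19 are not reported here), and the highest relative of each member; genes at or near 0 were named after their values were seen. Protein comparisons were not made, for want of a protein table. Positions of motifs count bases before the RefSeq start.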

Additional observations from a re-analysis of the deposited data

How the results depend on the processing

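The median level of the 9 factors, 0.940 TPM, was 0.640 in FPKM, another unit, 1.03 in posterior mean TPM, and 0.850 to 1.03 with either replicate left out. The 2 factors at the threshold of 1 became 1 with FPKM, 4 with posterior mean TPM, 7 at 0.5 TPM, 1 at 2 TPM and 0 at 5 TPM, and 2 to 5 with either replicate left out: without replicate 2, Neurod1, Nkx2-2 and Rfx6 join. The median log2 ratio of 0.38 reversed to -0.17 with ERCC spike-in scaling, where the median gene moved by -0.57, and was 0.24 to 0.46 under the other alternatives run. The count of 0 factors beyond 2-fold became 2 at a fold of 1.5 (Neurod1 and Nkx2-2; 9.28% of all genes) and 1 without the low-count filter, which admits Fev. The 5 factors with the same leading transcript in both pools became 3 with posterior mean TPM; the cause was not tested. With posterior mean TPM the steps from Neurod1 to Nkx2-2 (0.20) and from Rfx6 to Pax4 (0.17) reversed, to -0.26 and -0.21, Fev passed Insm1, the step from Neurog3 to Pax6 fell to 0.56, against 1.54 by TPM, and Neurod1 minus Pax6 became -0.99, beyond its spread. The counts of neighbour steps (5) and of pairs (7 of 8, 8 with posterior mean TPM) beyond their spread, though not the steps themselves, and the 19 other endocrine factors detected (16 to 20), stayed within 1.5 times. The search of 250 bases in place of 300, added after the data were seen, gave 5 of 8 windows with CANNTG where 66.2% of all did. With a replicate left out, the count of steps beyond their spread, the ratios and the shared leading transcripts have no value. No paired analysis was possible because there is 1 group. Depth limits Fev most, with 15 and 3 counts.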
